A study of Drosophila melanogaster with 9 samples.

Results

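The respiratory chain of the inner mitochondrial membrane passes electrons from NADH (complex I) and succinate (complex II) through complex III and cytochrome c to complex IV, and the proton gradient that complexes I, III and IV build drives the ATP synthase (complex V). Most subunits are encoded in the nucleus, and a few core subunits in the mitochondrial genome. In Drosophila several of the nuclear genes have a duplicate, named with a final L, and such duplicates are known mostly from the male germ line.

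The genes described here are the nuclear subunits whose symbols begin with ND- (complex I), UQCR (complex III), COX4 to COX8 (complex IV) or ATPsyn (complex V), together with SdhA to SdhD (complex II), RFeSP and Cyt-c1 (complex III). The rule found 80 of the 17490 genes in the table, of which 64 were main subunits (34 of complex I, 4 of complex II, 8 of complex III, 7 of complex IV and 11 of complex V). The other 16 were duplicates with a symbol ending in L, or in L and a digit (6 of complex I, 2 of complex III, 4 of complex IV and 4 of complex V). ND-MNLL ends in L but is a main subunit of complex I and was kept with the main subunits.

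All samples came from w1118 females, as the deposited design states, and blood cells of 3 kinds were sequenced as RNA with 3 biological replicates each, so that p-values measure the spread between these replicates. Adult hemocytes (AD) were flushed with PBS from flies about 5 days old, larval peripheral hemocytes (PH, named L3 in the deposited labels) were released from larvae of the third instar by opening the cuticle, and larval lymph glands (LG) were dissected from larvae of the same stage, of which the anterior lobes were kept. Each replicate pooled many animals and no group was sorted by a marker, so that an AD library holds whatever the perfusion flushed out of the body. By microscopy of reporter lines, the paper found srp expressed in nearly all cells perfused from flies of this age. For the larval peripheral preparation it found mostly Pxn-positive hemocytes and saw no fat body cells. Between 2745573 and 6779942 reads could be recovered per library from the deposited RPKM values. RPKM is the read density over the exons of a gene, relative to a divisor for each library. This divisor was not the recovered total, with 3849900 against 4999411 reads in PH replicate 3 and 9033159 against 6779942 reads in LG replicate 3. The paper reports more mapped reads per sample than were recovered, so these counts are not the sequencing depth. As each library is a bulk sample, fewer cells of a type and less RNA per cell cannot be told apart.

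All 12 hemocyte markers examined were expressed (RPKM above 1 throughout the 3 samples) in each group, among them srp, Hml and Pxn. Their levels differed between the groups, with sums of 5211 to 5787 RPKM in AD, 3694 to 5196 RPKM in PH and 2481 to 2917 RPKM in LG. Single markers moved both ways, with log2 fold changes of AD from -4.04 (He) to 2.27 (Hml) against PH and from -3.99 (He) to 3.43 (crq) against LG. Markers of other tissues also differed between the groups. The summed level of 17 muscle markers ran from 1267 to 1294 RPKM in AD, but only from 37.7 to 71.8 RPKM in PH and from 296 to 364 RPKM in LG, and none of them was at 0 in AD. TpnC4, the troponin C of flight muscle, was at 129, 109 and 125 RPKM in AD and at 0 in all LG samples and in 2 of 3 PH samples. The 6 adult fat body markers summed to 7965 to 12380 RPKM in AD, mostly from the yolk protein genes Yp1, Yp2 and Yp3, against 62.1 to 68.3 RPKM in PH and 11.2 to 49.3 RPKM in LG. Markers of ovary (9 genes) summed to 3.89, 7.98 and 17.2 RPKM in AD, against at most 3.71 RPKM in PH and 2.28 RPKM in LG. Those of gut (8 genes) summed to at most 24.9 RPKM in any sample and those of the male germ line (9 genes) to at most 5.2 RPKM. Cp36 of the ovary list, aly, can and dj of the male germ line list and Him of the heart and pericardial list were at 0 in all 9 samples. The heart and pericardial list (5 genes) reached 13.9 to 26.4 RPKM in LG, nearly all from Hand, and less than 1 RPKM in AD and PH.

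Nearly all main subunits were more abundant in AD than in either larval group, and the main subunits together reached sums of 8216 to 9356 RPKM in AD, compared with 2294 to 2631 RPKM in PH and with 2033 to 2834 RPKM in LG. Of 62 main subunits that passed the filter on low values (RPKM above 1 in 3 or more samples of a pair), 60 had every AD sample above all 6 larval samples, against 24.3% of 8065 genes over the table. The exceptions were COX7A and UQCR-11. ND-B8 is counted among the 60, although it passed the filter only through AD. The plot of levels by sample shows the separation in each complex.

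**Figure D1:**
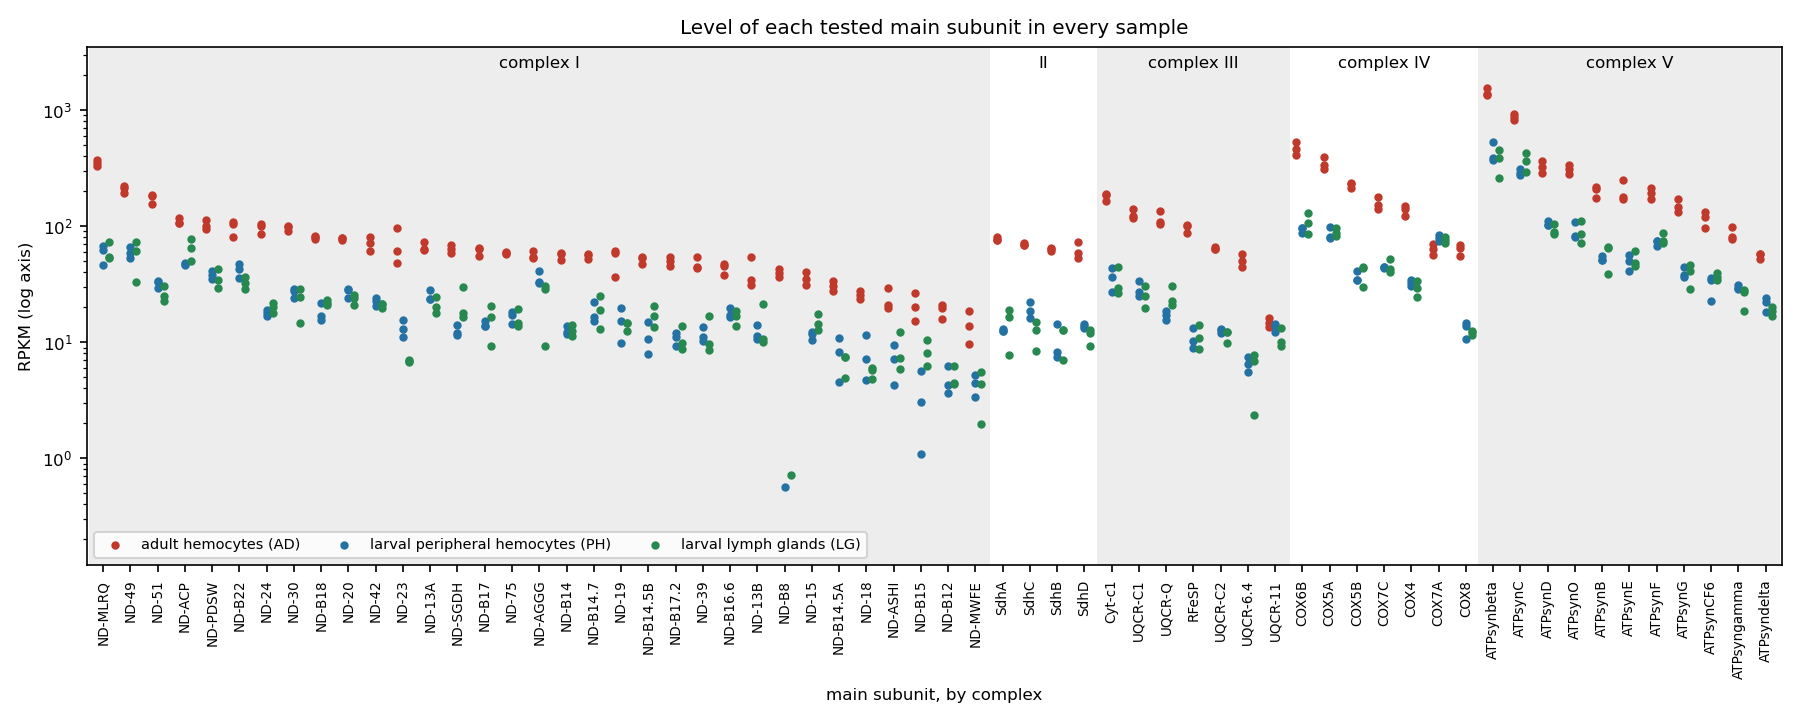
Level in RPKM (log axis) of each of 62 main subunits in the 3 samples of adult hemocytes (red), larval peripheral hemocytes (blue) and larval lymph glands (green), ordered within each complex by mean level in AD. Samples at 0 RPKM (ND-B8 in 2 PH and 2 LG samples) are not drawn, and the AD points lie above all larval points except for COX7A and UQCR-11.

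Calls required a limma adjusted p under 0.01 together with more than a 2-fold difference on the log2(RPKM + 1) scale. Between AD and PH, 60 of 63 tested members, including 1 duplicate, were called higher in AD, where 23.0% of the 7692 genes tested were. Between AD and LG, 59 of 63 were called higher, where 20.0% of the 7748 genes tested were. ND-B8 is in these counts and in the medians below, although it passed the filter only through AD, so that its call was nearly fixed by the filter. No member was called lower in AD, against 13.9% and 10.4% of all genes, although COX7A lay lower against PH at an unadjusted p below 0.05, and voom on the recovered reads called none lower either. Against both larval groups, 59 members were called higher in AD, 58 of them main subunits, beside 16.1% of all genes. The 2 comparisons share the AD samples. The balance of all genes depended on the scaling, with 19.0% higher and 18.5% lower against PH after quantile normalization, and 15.7% higher and 17.1% lower against LG when scaled to reads outside rRNA genes. Over the tested members the log2 fold changes had medians of 1.89 (PH) and 1.93 (LG), where the medians over all genes tested were 0.05 and 0.07. On the log2 scale 50 main subunits exceeded 1.5 in the comparison with PH and 51 in that with LG, and 25 and 24 exceeded 2.

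The muscle and fat body markers named above moved with this difference, and their part in it was not tested. Of the muscle list, 12 of 15 tested genes were called higher in AD against PH and 9 of 14 against LG, with 1 lower against LG, and of the fat body list 5 of 6 and 4 of 5, with 1 lower against PH. Over all settings the muscle genes called higher numbered 7 to 13 against PH and 5 to 9 against LG, and the fat body genes 4 to 5 and 4. The call of Mhc against LG was lost in 11 of 17 alternatives, and that of Lip4 against PH in 7 of 16. Against PH, TpnC4, Act88F, Strn-Mlck, bt and sls passed the filter only through AD, and Lsp2 only through PH. Against LG, TpnC4, Act88F and Strn-Mlck passed only through AD. Calls of genes that pass only through the group where they are high were nearly fixed by the filter. Between the larval groups, 11 of 12 tested muscle genes were called higher in LG than in PH, (5 without LG replicate 3, 6 without LG replicate 1 and 7 without PH replicate 2 or without the filter), as with Mlc2 at 45.3, 58.0 and 67.9 RPKM in LG and 4.47, 4.21 and 12.7 RPKM in PH. Among these muscle genes, bt and sls passed the filter only through LG. No member of the respiratory chain was called between these groups, and whether the muscle and chain differences are linked was not tested.

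**Figure D2:**
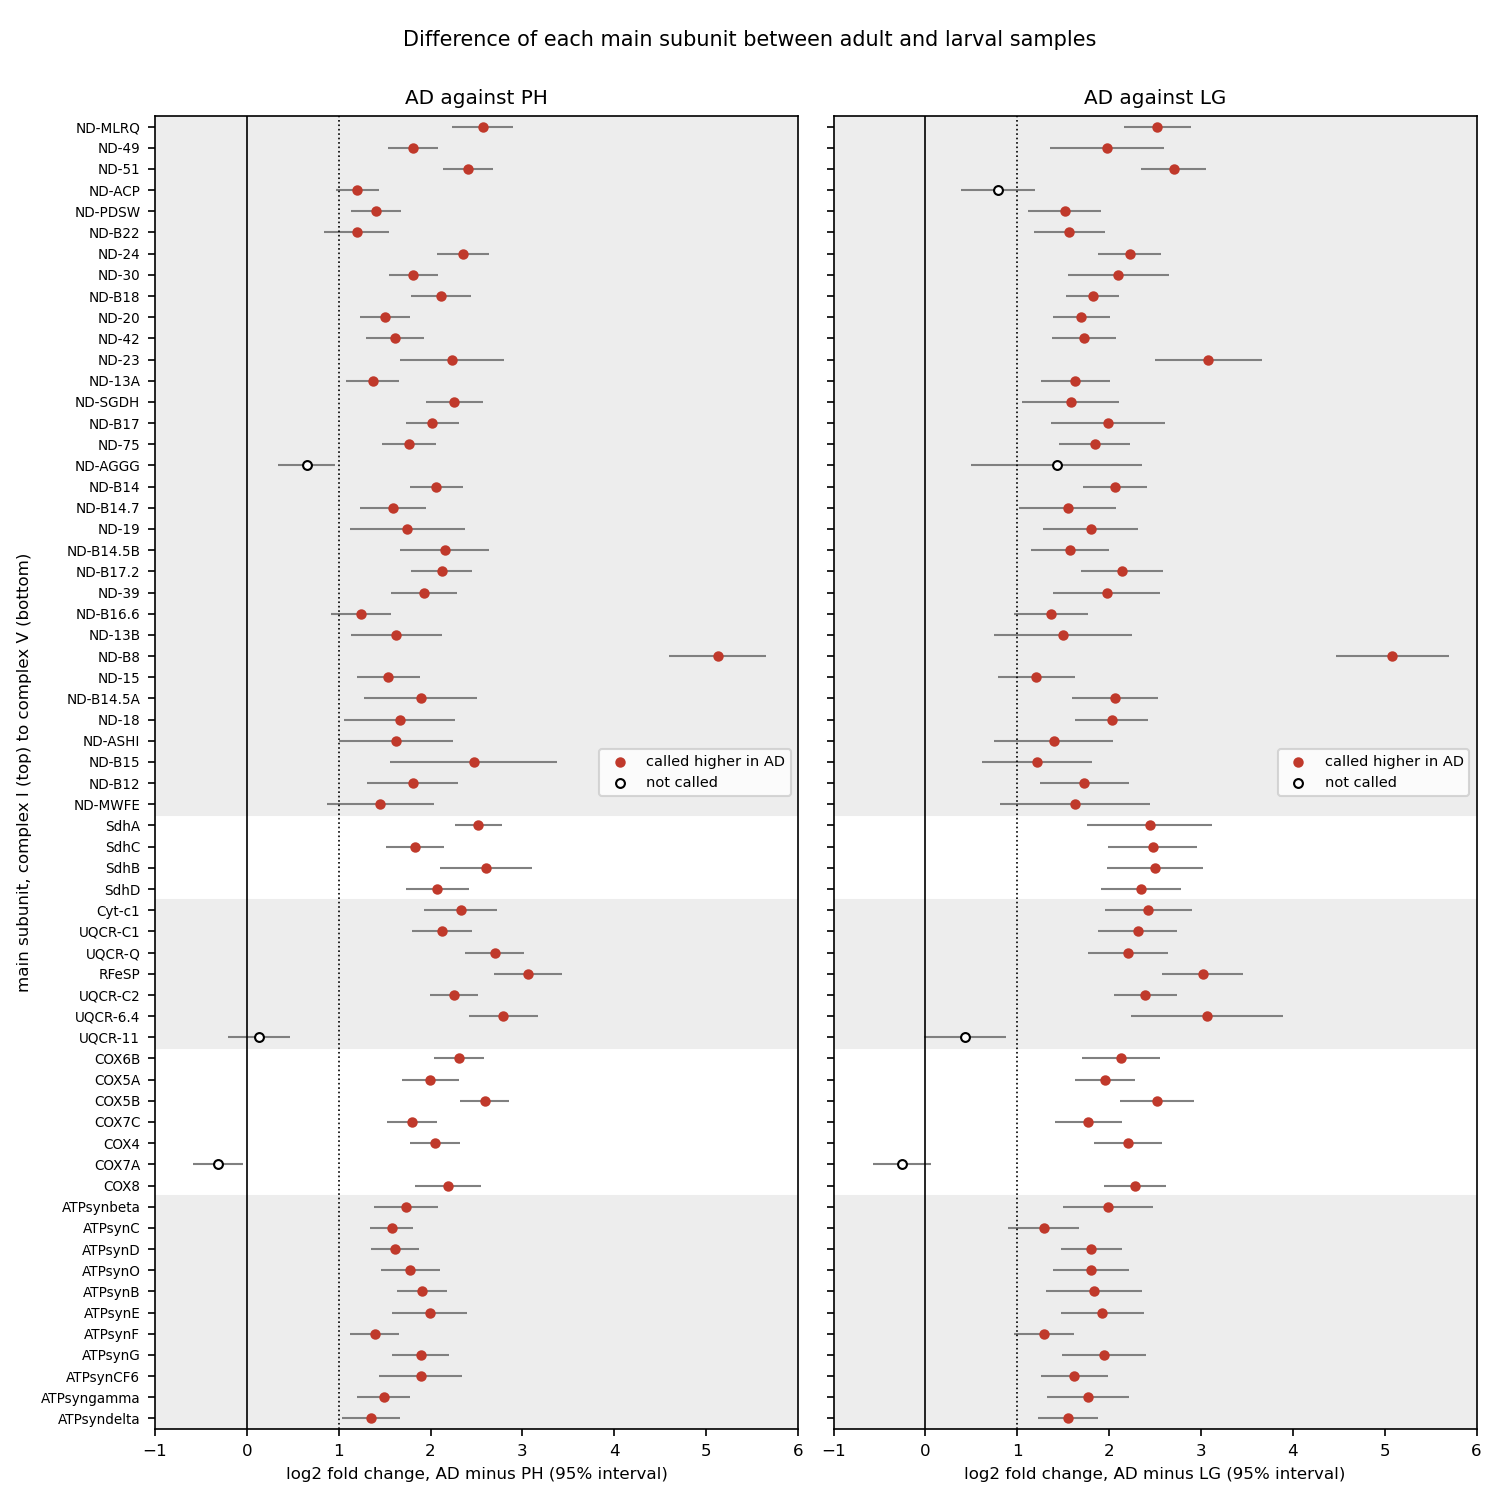
Log2 fold change of each of 62 main subunits in AD against PH (left) and against LG (right), with complex I at the top and complex V at the bottom. Points are limma estimates on log2(RPKM + 1), lines are 95% intervals, filled points were called higher in AD and the dotted line marks a fold change of 2. The open points are the subunits not called, with COX7A below 0 in both panels.

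Complex I, the NADH dehydrogenase, is the largest of the complexes, and 33 of its 34 main subunits were tested. Of these, 32 were called higher in AD against PH and 31 against LG, with median log2 fold changes of 1.81 and 1.73. Its 7 nuclear core subunits, which bind the flavin or the iron-sulfur clusters or lie next to the quinone site, were each called against both larval groups, with medians of 1.81 and 2.1. The 26 tested accessory subunits had medians of 1.71 and 1.63.

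Among complex I subunits ND-MLRQ had the highest mean level, with 349, 370 and 327 RPKM in AD, 62.0, 46.6 and 67.1 RPKM in PH and 73.5, 54.6 and 52.9 RPKM in LG. The mammalian counterpart of this protein is now assigned to complex IV. The core subunit ND-49 followed with 223, 214 and 194 RPKM in AD, 66.0, 58.9 and 52.8 RPKM in PH and 60.5, 33.2 and 72.4 RPKM in LG. In both genes the AD samples lay well above the larval ones, with log2 fold changes of 2.57 and 2.52 for ND-MLRQ and of 1.81 and 1.98 for ND-49 against PH and LG.

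The lowest of the tested complex I subunits was ND-MWFE, with 13.7, 18.4 and 9.67 RPKM in AD, 4.47, 5.17 and 3.39 RPKM in PH and 5.56, 1.96 and 4.33 RPKM in LG. Every AD sample lay above all larval ones, while PH and LG overlapped, and the log2 fold change was 1.46 against PH (adjusted p = 0.0013) and 1.63 against LG (adjusted p = 0.0062). The latter call was lost without AD replicate 1 (adjusted p = 0.023), AD replicate 2 (adjusted p = 0.027) or LG replicate 3 (adjusted p = 0.017), and under 5 other alternatives (adjusted p from 0.011 to 0.018). The call against PH was lost with a pseudocount of 5, at 0.998. It shares 19.8% of its exon bases with TppII on the opposite strand and 15.2% with Nrk on its own strand.

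ND-B8, an accessory subunit, had the largest difference of all members. It lies on chromosome 2L from 4454626 to 4455207 (BDGP6.54 annotation) and stood at 39.6, 42.4 and 36.8 RPKM in AD, from 170 reads. Only 1 read was recovered in PH (0.565 RPKM in replicate 3, 0 in the others) and 1 in LG (0.717 RPKM in replicate 2). The read rate in AD was 286 times that in PH (95% exact interval from 50.6 to 11300) and 328 times that in LG (58.0 to 13000), where the intervals cover counting error only. The gene shares 71 of its 460 exon bases with Gs1l on the opposite strand, which itself was at 8.42, 7.09 and 11.5 RPKM in AD and at no more than 2.2 RPKM in any larval sample. With any AD replicate left out, ND-B8 no longer passed the filter and was not tested.

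A pair of complex I subunits was called against only 1 larval group or against neither. ND-AGGG was at 61.3, 54.6 and 52.7 RPKM in AD, 33.2, 32.2 and 41.1 RPKM in PH and 30.4, 9.30 and 28.7 RPKM in LG. All AD samples were the highest, but the log2 fold change of 0.65 against PH (adjusted p = 0.0031) was below the fold threshold, and that of 1.43 against LG had an adjusted p of 0.019. Without the low LG replicate 2 the latter value was 0.90 (adjusted p = 0.0012). ND-ACP, the mitochondrial acyl carrier protein, which also serves fatty acid synthesis, was at 107, 117 and 106 RPKM in AD, 46.2, 48.1 and 47.2 RPKM in PH and 78.0, 50.2 and 64.3 RPKM in LG. It was called against PH (1.20, adjusted p = 1.8e-05) and not against LG (0.79, adjusted p = 0.0070).

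Complex II, the succinate dehydrogenase, also belongs to the TCA cycle and has no subunit from the mitochondrial genome. All 4 subunits were called higher in AD against both larval groups, with median log2 fold changes of 2.30 and 2.46. The flavoprotein SdhA had 80.1, 76.0 and 76.4 RPKM in AD, 13.0, 12.4 and 12.6 RPKM in PH and 18.8, 7.80 and 16.4 RPKM in LG. The iron-sulfur protein SdhB had 61.7, 64.9 and 64.0 RPKM in AD, 7.49, 8.20 and 14.3 RPKM in PH and 12.7, 7.04 and 12.6 RPKM in LG. Within AD the catalytic pair thus varied little between replicates, and no AD sample overlapped a larval one.

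The membrane anchors SdhC and SdhD differed less from PH than the catalytic pair. SdhC was at 68.7, 71.2 and 69.1 RPKM in AD, 18.8, 16 and 22.1 RPKM in PH and 12.8, 8.38 and 14.9 RPKM in LG. SdhD was at 58.5, 73.6 and 53.1 RPKM in AD, 13.4, 14.2 and 13.7 RPKM in PH and 12, 9.23 and 12.8 RPKM in LG. The log2 fold changes against PH were 2.52 (standard error 0.11) for SdhA, 2.6 (0.22) for SdhB, 1.84 (0.14) for SdhC and 2.08 (0.15) for SdhD, and against LG all 4 lay between 2.35 and 2.50. Differences between subunits were not tested.

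Complex III, the cytochrome bc1 complex, had 7 tested main subunits, of which 6 were called against both larval groups, with medians of 2.33 and 2.39 over the 7. Cyt-c1, the haem subunit that hands electrons to cytochrome c, was at 187, 190 and 164 RPKM in AD, 36.5, 26.9 and 43.9 RPKM in PH and 44.6, 26.5 and 29.4 RPKM in LG. UQCR-C1, a core protein, was at 122, 142 and 118 RPKM in AD, 33.6, 24.8 and 27.1 RPKM in PH and 30.8, 19.6 and 25 RPKM in LG. These were the most abundant subunits of the complex on average, and neither gene overlapped between adult and larval samples.

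RFeSP, the Rieske iron-sulfur protein, had the largest log2 fold change of complex III against PH. It lies on chromosome 2L from 1612429 to 1614160 and was at 87.1, 103 and 101 RPKM in AD, 13.4, 8.94 and 10.2 RPKM in PH and 14.1, 10.9 and 8.81 RPKM in LG (3.06 and 3.02, adjusted p = 1.5e-06 and 1.5e-05). UQCR-6.4, a small accessory subunit, had the largest against LG, at 3.06 (adjusted p = 3.0e-04). Its levels were 57.9, 50.1 and 44.2 RPKM in AD, 6.45, 5.51 and 7.41 RPKM in PH and 7.77, 2.35 and 6.91 RPKM in LG. It shares 40.5% of its exon bases with POSH on the opposite strand, so that the assignment of its reads is less certain than for RFeSP, which shares 13.2%.

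UQCR-11 was the subunit of complex III that was not called. It was at 13.6, 14.8 and 16.1 RPKM in AD, 14.4, 12.2 and 13.7 RPKM in PH and 13.3, 9.21 and 10 RPKM in LG, so that AD and PH overlapped. On the log2 scale the difference was 0.13 against PH (95% interval from -0.21 to 0.47, adjusted p = 0.47) and 0.43 against LG (from -0.02 to 0.87, adjusted p = 0.10), intervals that leave out a fold change of 2.

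Its duplicate UQCR-11L was the only duplicate to be tested, and it was called higher in AD. It lies on chromosome 2R from 8677219 to 8677661, whereas UQCR-11 lies on 3L from 25120709 to 25126171. Its levels were 8.22, 14.9 and 6.82 RPKM in AD, 1.42, 1.64 and 0.586 RPKM in PH and 0.378, 2.24 and 2.0 RPKM in LG, with no overlap between adult and larval samples. The AD values rest on 10 to 20 reads per library and the larval ones on 1 to 8 reads. On the log2 scale the difference was 2.27 against PH (adjusted p = 4.1e-04) and 2.14 against LG (adjusted p = 0.0036), and the latter call was lost without AD replicate 1 (adjusted p = 0.012) or AD replicate 2 (adjusted p = 0.016), and with a pseudocount of 0.1 (adjusted p = 0.011) or no filter (adjusted p = 0.010). As a share of the summed RPKM of the pair, UQCR-11L made up 37.8, 50.3 and 29.7% in AD, 8.96, 11.9 and 4.11% in PH and 2.77, 19.5 and 16.6% in LG. Whether the 2 genes share reads was not tested.

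**Figure D3:**
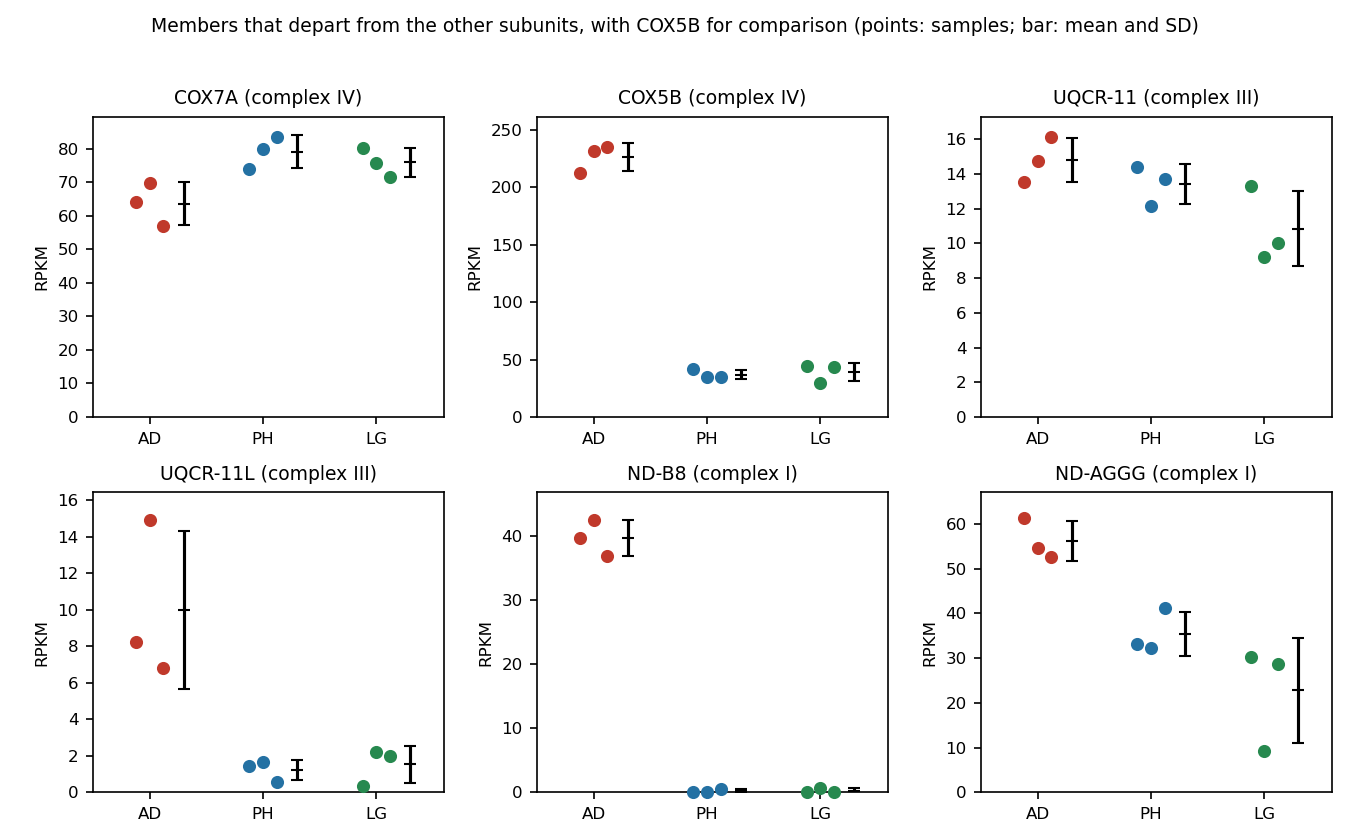
RPKM in each sample of 5 members that depart from the other subunits and of COX5B, a subunit of complex IV shown for comparison (linear axes from 0, which differ between panels). Points are samples and the bar beside them is the mean with its SD over 3 replicates. COX7A is lowest in AD, UQCR-11 is alike in AD and PH while UQCR-11L is higher in AD, ND-B8 is near 0 outside AD, and ND-AGGG has 1 low LG sample at 9.30 RPKM.

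Complex IV, the cytochrome c oxidase, has catalytic subunits from the mitochondrial genome that are surrounded by nuclear ones. Of its 7 main subunits covered by the rule, 6 were called against both larval groups, with medians of 2.05 and 2.13 over the 7. COX6B led with 465, 532 and 413 RPKM in AD, 87.9, 96.3 and 95.8 RPKM in PH and 131, 85.8 and 107 RPKM in LG. COX5A followed with 308, 393 and 340 RPKM in AD, 79.1, 80.1 and 99.2 RPKM in PH and 97.1, 87.9 and 81.5 RPKM in LG. Both were clearly separated between adult and larval samples.

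COX5B had the largest log2 fold changes of the complex (2.59 against PH and 2.52 against LG), at 212, 231 and 235 RPKM in AD, 41.4, 34.6 and 34.6 RPKM in PH and 44.1, 29.9 and 43.6 RPKM in LG. COX8, the least abundant subunit on average, was at 68.4, 64.5 and 55.4 RPKM in AD, 14.7, 13.8 and 10.6 RPKM in PH and 12.4, 11.6 and 12.3 RPKM in LG. Neither gene overlapped between adult and larval samples.

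COX7A went the other way and was lowest in AD. This subunit has tissue isoforms in mammals. The gene lies on chromosome 3R from 8339944 to 8341043, shares no exon base with another annotated gene, and was at 64.1, 69.8 and 56.8 RPKM in AD, 73.8, 79.8 and 83.5 RPKM in PH and 80.3, 75.8 and 71.5 RPKM in LG. Every AD sample lay below all 6 larval ones. The difference was small and not called, at -0.31 on the log2 scale against PH (95% interval from -0.58 to -0.04, adjusted p = 0.049) and -0.26 against LG (from -0.57 to 0.06, adjusted p = 0.16). Set against the median of the other 6 main subunits in the same sample, COX7A was at 0.365, 0.341 and 0.293 in AD, at 1.71, 2.04 and 2.12 in PH and at 1.66, 2.08 and 1.70 in LG. It was the subunit of rank 6 or 7 of the complex in AD and of rank 3 in every larval sample, a measure on which the scaling between samples has no bearing. The log2 fold change stayed below 0 under all alternatives, from -0.45 to -0.19 against PH and from -0.60 to -0.18 against LG, and never reached the fold threshold.

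Complex V, the ATP synthase, held the most abundant members. All 11 main subunits were called against both larval groups, with medians of 1.73 and 1.80. Scaled to reads outside rRNA genes, ATPsynC (0.94 on the log2 scale) and ATPsynF were no longer called against LG. The catalytic ATPsynbeta, on chromosome 4 from 1031484 to 1034917, was at 1545, 1381 and 1342 RPKM in AD, 390, 373 and 534 RPKM in PH and 455, 260.0 and 387 RPKM in LG. ATPsynC, which forms the rotor ring in the membrane, was at 877, 924 and 818 RPKM in AD, 279, 287 and 311 RPKM in PH and 431, 292 and 362 RPKM in LG. ATPsynC had the smallest log2 fold change of the complex against LG (1.29) and ATPsynbeta the largest (1.99).

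ATPsynE, a small membrane subunit, had the largest change of complex V against PH (1.99), with 178, 251 and 171 RPKM in AD, 41.1, 50.5 and 56.3 RPKM in PH and 61.2, 44.9 and 48.6 RPKM in LG. ATPsyndelta of the central stalk had the smallest against PH (1.35) and the lowest level, with 57.7, 57.9 and 52.3 RPKM in AD, 22, 18.2 and 24.1 RPKM in PH and 19.9, 18.6 and 16.9 RPKM in LG. It shares 35.6% of its exon bases with CG2962 on the opposite strand. Complex V therefore spanned a narrow range, from 1.35 to 1.99 against PH and from 1.29 to 1.99 against LG.

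The proportions of the complexes in the summed level of the main subunits were close between groups, but complexes II and III took a larger share in AD. Complex II accounted for 3.05 to 3.19% of the AD sum, against 2.19 to 2.38% (PH) and 1.60 to 2.32% (LG), and complex III 7.27 to 7.51%, 4.61 to 5.65% and 4.60 to 5.41%. Complex V accounted for 44.2 to 46.1% of the AD sum, against 47.9 to 51.6% (PH) and 47.9 to 51.0% (LG). For complexes I and IV the ranges of the groups overlapped. The order of the 62 main subunits by mean level was also close, with a Spearman's rho of 0.87 for AD with PH, 0.87 for AD with LG and 0.96 for PH with LG, given as descriptions over genes that share their libraries.

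Ranked among all genes of a sample, the main subunits had a median rank between 536 and 597 in AD, between 1668 and 1850 in PH and between 1426 and 1740 in LG. Between 51 and 55 of them were among the 1000 highest genes of an AD sample, against 18 to 19 in PH and 17 to 21 in LG. Ranks within a sample do not depend on the scaling between samples. The members lay on all major chromosome arms, with 12 on X, 15 on 2L, 16 on 2R, 17 on 3L, 18 on 3R and 2 on 4, and the median log2 fold change against PH of the tested members of an arm was between 1.72 (X) and 2.05 (2L).

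Between the larval groups no member was called among 62 tested, where 14.2% of the 7088 genes tested were called in either direction (7.63% higher and 6.57% lower in PH, or 4.51% and 10.3% when scaled to total recovered reads). The limma test gave 5 members at an unadjusted p below 0.05, and voom on the recovered reads also called none and gave 4. The median log2 fold change of PH against LG was 0.05 over the members and 0.01 over all genes. The 95% interval lay within a fold change of 2 in both directions for 53 of the 62 members and had a median half-width of 0.45 on the log2 scale. Samples of the groups did not overlap for 10 of the 62, against 47.7% of all genes tested.

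The following members were chosen after their values were seen. The lowest adjusted p was that of ND-23, a core subunit of complex I that carries iron-sulfur clusters. It was at 11.1, 13.1 and 15.5 RPKM in PH and at 6.75, 6.85 and 7.03 RPKM in LG, without overlap (log2 fold change of 0.84, adjusted p = 0.011), and at 47.7, 96.5 and 61.3 RPKM in AD. ND-B15, an accessory subunit, went in the other direction, with 5.61, 3.05 and 1.09 RPKM in PH and 10.5, 6.23 and 8.12 RPKM in LG (-1.26, adjusted p = 0.049). The other members at an unadjusted p below 0.05 were SdhC (0.64, adjusted p = 0.074), ND-SGDH (-0.68, adjusted p = 0.065) and UQCR-Q (-0.50, adjusted p = 0.081). Within LG, replicate 1 was the highest of the 3 samples for 42 of the 62 main subunits and replicate 2 the lowest for 40, and the median coefficient of variation was 20.6% in LG against 9.60% in AD and 11.4% in PH. With any LG replicate left out, no member was called between PH and LG, and 55 to 58 were called higher in AD against LG.

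**Figure D4:**
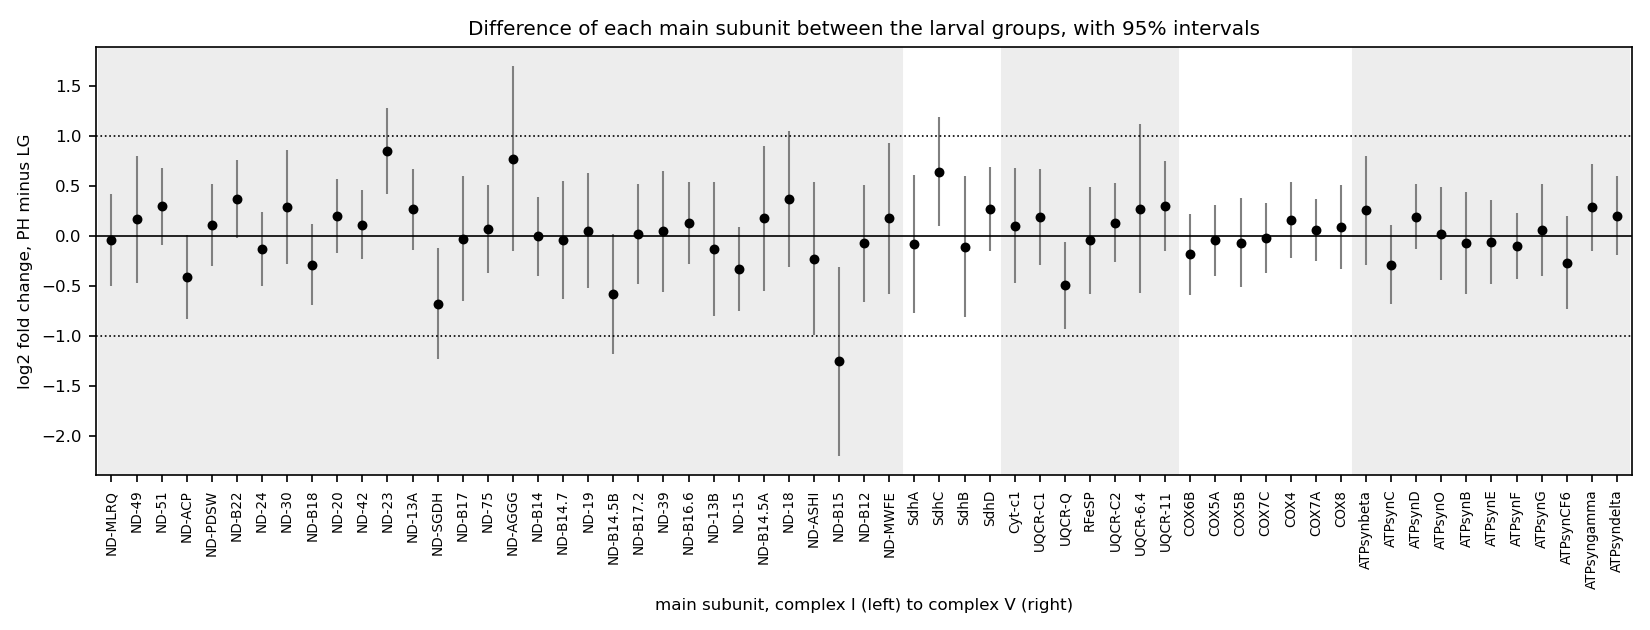
Log2 fold change of PH against LG for 61 main subunits, with complex I at the left and complex V at the right. Points are limma estimates on log2(RPKM + 1), lines are 95% intervals and dotted lines mark a fold change of 2. No subunit was called, and ND-B15 (-1.26) and ND-23 (0.84) lie farthest from 0.

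Most duplicates were listed at 0. In all 9 samples, 9 of the 16 were at 0 reads (ND-20L, ND-24L, ND-B14.5AL, UQCR-14L, COX5BL, COX6AL, COX7AL, ATPsynCF6L and ATPsynGL), and so were the main subunits ND-MNLL and UQCR-14. With the limit set at 3 reads in a library, 0 reads allow levels of up to 1.98 RPKM (AD), 1.55 RPKM (PH) or 1.97 RPKM (LG) for the shortest of these 11 genes. Among all 80 members, the 3 whose exon bases lie wholly within another gene (ND-MNLL in CG45089, UQCR-14 in CG32576 and COX5BL in Trmt6) were all at 0, and how reads in such overlaps were counted was not tested. Of the overlapping genes, CG45089 was itself at 0 in all 9 samples, while CG32576 stood at 15.2 to 28.9 RPKM. As their exons lie wholly within other genes, the zeros of the 3 members do not show that they are silent.

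Of the other duplicates, ND-51L1 had its highest values in LG, at 5.55, 0.770 and 4.03 RPKM, and stood at 0.155, 0.772 and 0.564 RPKM in AD and at 0.294, 0.0848 and 0 RPKM in PH. It passed the filter in no comparison. The LG values rest on 71, 5 and 78 reads, and LG replicate 2 lay within the range of AD. ND-51L2 was at 0.846, 0.422 and 0.965 RPKM in AD and at no more than 0.301 RPKM in a larval sample. COX4L was at 1.08, 0.996 and 0 RPKM in PH and at 0 in LG, with 0.454 RPKM in 1 AD sample. ND-49L and ATPsynbetaL stayed at or below 0.389 RPKM, and ATPsynepsilonL was at 0.684, 3.37 and 0 RPKM in LG and 0.617 RPKM in 1 AD sample.

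Genes next to the members in the pathway were described from lists drawn from general knowledge. Of 7 chain subunits that the rule leaves out because of their names, 5 were tested, and each was higher in AD against both larval groups, and SdhAL and SdhBL were at 0 in every sample. They were blw (the alpha subunit of ATP synthase), sun (its epsilon subunit), ox (complex III), levy and cype (complex IV). The catalytic partner of ATPsynbeta, blw, was at 844, 820 and 761 RPKM in AD, 266, 264 and 248 RPKM in PH and 356, 239 and 275 RPKM in LG.

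Cyt-c-p, the somatic cytochrome c that carries electrons from complex III to complex IV, differed strongly between adult and larval samples. It was at 923, 1043 and 984 RPKM in AD, 15.0, 17.1 and 24.0 RPKM in PH and 88.8, 30.5 and 64.7 RPKM in LG, with log2 fold changes of 5.67 and 4.11. In the ratio of mean RPKM it was 52.6 times higher than in PH, where ND-B8 was 210.0 times higher on the basis of 1 PH read. The larval groups did not overlap either (-1.56, adjusted p = 0.014), although this was not called. sesB, the ADP/ATP carrier, was at 1045, 1072 and 964 RPKM in AD, 227, 217 and 257 RPKM in PH and 388, 259 and 332 RPKM in LG (2.14 and 1.67). porin, the channel of the outer membrane, was at 241, 282 and 248 RPKM in AD, 137, 135 and 127 RPKM in PH and 136, 110 and 117 RPKM in LG, and passed the fold threshold only against LG (0.94 and 1.08), where 3 other scalings left it below (down to 0.73). All 37 genes of the mitochondrial genome are listed at 0 in every sample, so the subunits they encode could not be followed.

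The other mitochondrial groups did not all move with the members. Of 73 mitochondrial ribosomal protein genes, 71 were tested against PH, of which none was called higher and 8 lower in AD (median log2 fold change of -0.43), and 72 against LG, of which 1 was higher and 4 lower (-0.61). Of 93 genes with symbols of cytosolic ribosomal proteins, -like genes included, 85 were tested. Of these, 1 was called higher and 2 lower against PH (median of -0.60), and none higher and 22 lower against LG (-0.91). RpL24-like, named by likeness only, had the highest log2 fold change in both comparisons (1.45 and 0.33). Over the alternatives these medians stayed below 0, but the number of genes called lower moved widely. For the cytosolic list against LG it was 75 when scaled to total recovered reads and 79 when scaled to reads outside rRNA genes. It was 50 without LG replicate 1, 43 without AD replicate 2, and 11 to 15 with any other replicate left out. For the mitochondrial list it ranged from 3 to 13 against PH and from 1 to 16 against LG, with the lowest counts without PH replicate 3 and without LG replicate 3. None of the 4 tested assembly factors was called higher in AD, and Scox, a copper chaperone of complex IV, was called lower against PH (-1.21, adjusted p = 0.0050), a call lost in 7 of 17 alternatives, among them those without AD replicate 2, AD replicate 3, PH replicate 1 or PH replicate 3. Of 7 genes found from the TCA cycle list, 3 were called higher in AD against PH (kdn, Mdh2 and Nc73EF) and none was called lower. Against LG these 3 were called higher together with Mdh1, the cytosolic malate dehydrogenase, and none was called lower. The call of Mdh1 was lost under 3 scalings. Many listed symbols of assembly factors (such as Bcs1 and NUBPL) and of the TCA cycle (such as Idh3a and ScsbetaG) were not found among the deposited symbols. Ogdh and Fum1 were found under their older symbols Nc73EF and l(1)G0255. Other genes may be present under symbols that were not searched for. The genes tested therefore cover only a part of these 2 groups. COQ7 of coenzyme Q synthesis was called higher against PH (1.12), though not in 5 of 17 alternatives, which include those without AD replicate 1 or AD replicate 2, and Coq2 in neither comparison.

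Of 10 tested regulators of mitochondrial genes, Myc (2.71) and mtRNApol, the mitochondrial RNA polymerase (1.26), were called higher in AD against PH and foxo (2.37) against LG. The call of mtRNApol was lost with a pseudocount of 5 and after quantile normalization. Dref was called lower in AD in both comparisons, at 5.88, 5.53 and 8.0 RPKM in AD, 14.2, 13.4 and 18.3 RPKM in PH and 20.5, 13.3 and 17.0 RPKM in LG. The call of Dref against LG was lost in 4 of 17 alternatives, among them those without AD replicate 1, AD replicate 2 or LG replicate 3, and that against PH with a pseudocount of 5. srl, the fly homologue of PGC-1, was at 9.27, 7.98 and 10.2 RPKM in AD, 4.98, 7.36 and 5.09 RPKM in PH and 23.1, 12.2 and 21.1 RPKM in LG, and was called only between the larval groups, where it was higher in LG (-1.51, limma adjusted p = 0.0048). This call was lost in 7 of 17 alternatives, among them those without any 1 of the PH replicates and without LG replicate 1 or LG replicate 3. Between these groups Myc was also called higher in LG (-3.29) and foxo higher in PH (1.68), the latter not without PH replicate 1 or PH replicate 2 nor when scaled to total recovered reads. Ets97D, ewg, ERR, TFAM and mtTFB2 were called in no comparison.

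**Figure D5:**
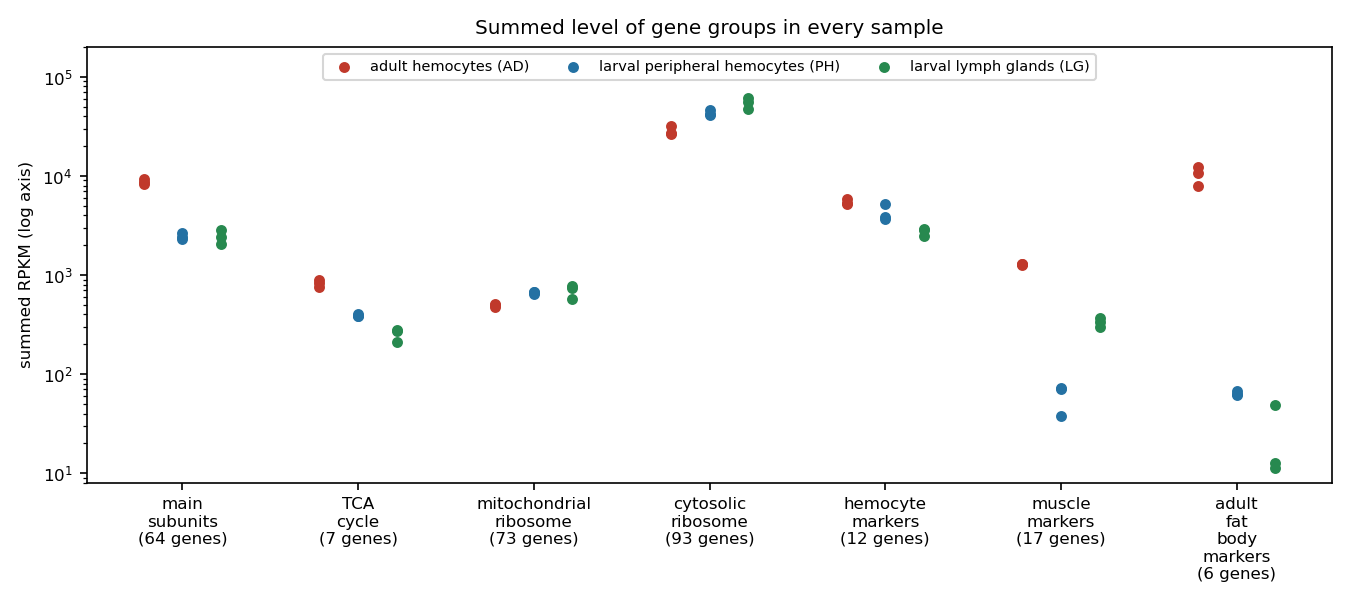
Summed RPKM (log axis) in each sample of the 64 main subunits, of other mitochondrial and ribosomal gene groups and of cell type markers, in adult hemocytes (red), larval peripheral hemocytes (blue) and larval lymph glands (green). The main subunits are higher in AD (8216 to 9356) and alike in PH and LG. The muscle markers are highest in AD (1267 to 1294) and lie at 296 to 364 in LG and 37.7 to 71.8 in PH. No link between these gene groups was tested.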

How the data were processed

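RNA was sequenced from 3 replicates each of AD, PH and LG. The authors deposited RPKM values for 17490 genes, and all value columns were used. Following the methods and, for versions, the submitters' processing notes, the authors trimmed reads with Trimmomatic 0.32, aligned them with HISAT2 2.1.0 to dm6, counted them with HTSeq and computed RPKM with Cufflinks 2.2.1. The notes also name BDGP5 and TopHat, and the labels and the methods name different RNA kits and sequencers. Whether counting used strand is not given in the sources used here.

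Exon lengths of BDGP6.54 (17216 genes matched by identifier, 85 by symbol, 189 unmatched) turned 97.8 to 98.0% of values into whole reads within 0.02. These reads served for limits, counting intervals and voom. Differences were fitted with limma 3.58.1 (R 4.3.3; lmFit, eBayes with trend) to log2(RPKM + 1) of each pair (6 samples), for genes with RPKM above 1 in 3 or more, two-sided, with Benjamini-Hochberg adjustment over all genes tested. This scale understates the change of low genes. Simulated data with 200 genes changed by 2 (log2) gave recoveries of 77.5% (AD against PH), 57.5% (AD against LG) and 68.5% (PH against LG), with 1, 0 and 0 false calls. In the data a far larger share of genes was called (37.0% in AD against PH, 30.4% in AD against LG). The recoveries and false calls therefore do not carry over directly to the reported fits.

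The members and lists were chosen with earlier results of these data known, so no test over a list was run. Named with values were, in each complex, the 2 tested members with the highest and the 1 with the lowest mean, the largest and smallest log2 fold changes of main subunits in either adult comparison, main subunits not called in both, all of complex II, any member called between PH and LG, and duplicates above 0. The alternatives changed the pseudocount (0.1 or 5), the filter (none, or RPKM 5), the scaling (median of ratios or quantiles), the samples fitted (all 9), the replicate block, each replicate in turn and the threshold of expression. The median-of-ratios scaling changed little (23.1% of genes higher in AD against PH, 23.0% in the main fit), so it is hardly a separate check. Scaling to total recovered reads, scaling to reads outside rRNA genes, and voom were chosen after seeing the data. Counts and plots used Python 3.11.15 and matplotlib 3.10.9.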

Additional observations from a re-analysis of the deposited data

How the results depend on the processing

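The number of members called higher in AD was 59 to 60 against PH and 52 to 59 against LG under every alternative, leaving out replicates included, and none was called between PH and LG. With the replicate block the counts were 60, 56 and 0. The same-numbered samples did not deviate together (correlations from -0.11 to 0.05), so the numbers were not taken as pairs. Of the values of 25 named members, 420 of 422 against PH and 407 of 422 against LG kept direction and side of the threshold, with 13 of the latter losing the call and ND-AGGG gaining it with all 9 samples in the fit and with voom. The calls lost against LG with a replicate left out were of ND-13B, ND-ASHI, ND-B15, ND-MWFE and UQCR-11L. UQCR-11 against PH turned to -0.022 after quantile normalization. ND-B8 could not be tested with any AD replicate left out.

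Medians of main subunits by complex moved by more than 1 SD between replicates as follows, on the log2 scale. AD against PH, complex I was 1.52 with pseudocount 5, 1.62 after quantile normalization, 1.89 scaled to total reads and 1.67 scaled to reads outside rRNA genes. Complex II was 2.37 with pseudocount 0.1, 2.02 with pseudocount 5, 2.15 after quantile normalization, 2.41 scaled to total reads, 2.16 scaled to reads outside rRNA genes and 2.38 with voom. Scaled to reads outside rRNA genes, complexes III, IV and V were 2.19, 1.91 and 1.59. AD against LG, total reads gave 1.5 (I), 2.15 (III), 1.87 (IV) and 1.54 (V), reads outside rRNA genes gave 1.42 (I), 2.12 (II), 2.06 (III), 1.78 (IV) and 1.45 (V), pseudocount 5 gave 2.14 for II and III, and quantile normalization gave 1.96 for IV. PH against LG, total reads gave -0.31 (I), -0.26 (II), -0.22 (III), -0.40 (IV) and -0.36 (V), reads outside rRNA genes gave -0.15 (I), -0.064 (III) and -0.23 (IV), and quantile normalization gave -0.27 (IV) and -0.32 (V). Total reads moved the median of all genes to 0.14, -0.15 and -0.31 in the 3 comparisons. With replicates left out, complex I ranged from 1.74 to 1.85 and complex III from 2.23 to 2.48 in AD against PH, and complex III from -0.046 to 0.32 in PH against LG. Apart from what each setting changes by construction, the cause was not tested. At 3 reads, members at 0 were undetectable below about 1 to 2 RPKM.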
